A study of Ovis aries with 30 samples.

Results

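Creatine cycling and calcium cycling are the best described routes by which fat cells can make heat without uncoupling protein 1 (UCP1), and 10 genes of these routes were followed in brown adipose tissue (BAT) and thyroid tissue of newborn lambs. The genes were CKB, CKMT2, GATM, GAMT, SLC6A8 and ALPL for creatine, and ATP2A1, ATP2A2, SLN and RYR2 for calcium. They were chosen by symbol from a table of 28524 genes, and all 10 symbols were present. The rule itself names symbols and no measured value, but it was written with earlier results of these data known.

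UCP1 makes heat by letting protons return across the inner mitochondrial membrane without making ATP. In the creatine cycle, creatine is phosphorylated at the cost of ATP and phosphocreatine is then cleaved again, so that ATP is spent and heat is released. In the calcium cycle, a pump of the endoplasmic or sarcoplasmic reticulum spends ATP to take up calcium that leaks out again through a release channel, and sarcolipin makes the pump less efficient in muscle. Newborn lambs depend on brown fat such as the depot around the kidneys for heat, and this fat turns white soon after birth.

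RNA was sequenced from both tissues of 15 newborn Romney lambs, which gave 30 libraries. Cold lambs (n = 6) were kept at 4 °C for 2 days, ambient temperature (AT) lambs (n = 6) at 20–22 °C for 2 days, and control lambs (n = 3) were sampled soon after they came indoors, within 24 h after birth. Cold and AT lambs were therefore also older than the controls, so that treatment and age cannot be told apart against the controls, whereas cold and AT lambs were sampled after the same 2 days of treatment. Each replicate was a separate lamb, and the BAT and thyroid libraries of a lamb carry the same animal identifier. Tests used Control 1 and Control 3, the animals that the study kept, and values of Control 2 are given beside them.

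Libraries held 31556500 to 37025998 counts in BAT and 25062784 to 30124871 in thyroid tissue. Levels are given as normalized counts, the count divided by a size factor from the reference genes ACTB, RPL19 and HUWE1. The 12 thyroid follicular cell markers set the tissues apart, with sums between 1355600 and 6009800 normalized counts in thyroid tissue and at most 4388 in BAT. Among 11 brown adipocyte markers in the table, the sum in BAT was 6501 to 19183 in cold, 1683 to 19177 in AT and 25331 to 94787 in control lambs, and most of the sum in the controls was UCP1. Without UCP1 the other 10 markers summed to 3462 to 6687 in cold, 1487 to 7179 in AT and 4598 to 9147 in control lambs. These overlap. Of the 8 tested markers, UCP1 included, 0 were called in either comparison with controls, beside 1.21% (cold) and 6.02% (AT) of all genes (edgeR). The log2 fold change was above 0 for 1 of the 8 in cold and 2 in AT lambs. Its median was −0.70 and −0.74, beside −0.10 and −0.03 over all genes. In thyroid tissue the 11 brown adipocyte markers summed to 1731 to 2690 in cold, 2162 to 4095 in AT and 3523 to 13395 in control lambs. These sums were scaled within each tissue and are not on 1 scale. With joint scaling of both tissues, the lowest BAT sum was 2806 (AT 6). In thyroid tissue the highest sum among cold and AT lambs was then 2620 (AT 3), and Controls 2 and 3 had 7965 and 3208. On that scale BAT overlapped only with these thyroid controls. In cold and AT lambs, 7 of 9 tested brown adipocyte markers and 10 of 10 adipocyte markers were called higher in BAT (edgeR). Of all genes, 40.6% were called in either direction. In bulk tissue, fewer cells of a type and less RNA per cell cannot be told apart. Skeletal muscle RNA stood apart in thyroid libraries of AT 3 and Control 1, where 29 muscle markers summed to 4769300 and 430360 normalized counts against 852 to 6446 in the other 13. In BAT this sum was 889 to 2158 over all 15 libraries. Of the 29 markers, 3 in cold, 2 in AT and 3 in control lambs were at 0 in every BAT library.

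A gene was called where the absolute log2 fold change (log2FC) was at least 1 and the adjusted p of edgeR's quasi-likelihood test was under 0.05, over all genes tested. In BAT, 9 of the 10 genes had enough reads to be tested. In cold against control, 0 of the 9 were called, beside 1.21% of all genes (edgeR). An unadjusted p under 0.05 was seen in 1 of 9, GATM, beside 2702 of all 14905 genes. DESeq2 called the same member, beside 628 of all genes. In AT against control, 2 of 9 were called, beside 6.02% of all genes: GATM was upregulated and ALPL downregulated. In cold against AT, 0 of 9 were called by edgeR and by DESeq2, beside 0.275% of all genes by edgeR. An unadjusted p under 0.05 was seen in 2 of 9, GAMT and ALPL, beside 1834 of all 14905 genes. The median log2FC of the 9 genes was −0.19, −0.16 and −0.04 in these comparisons, beside −0.10, −0.03 and −0.05 over all genes. Both comparisons with controls share the same control libraries.

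**Figure D1:**
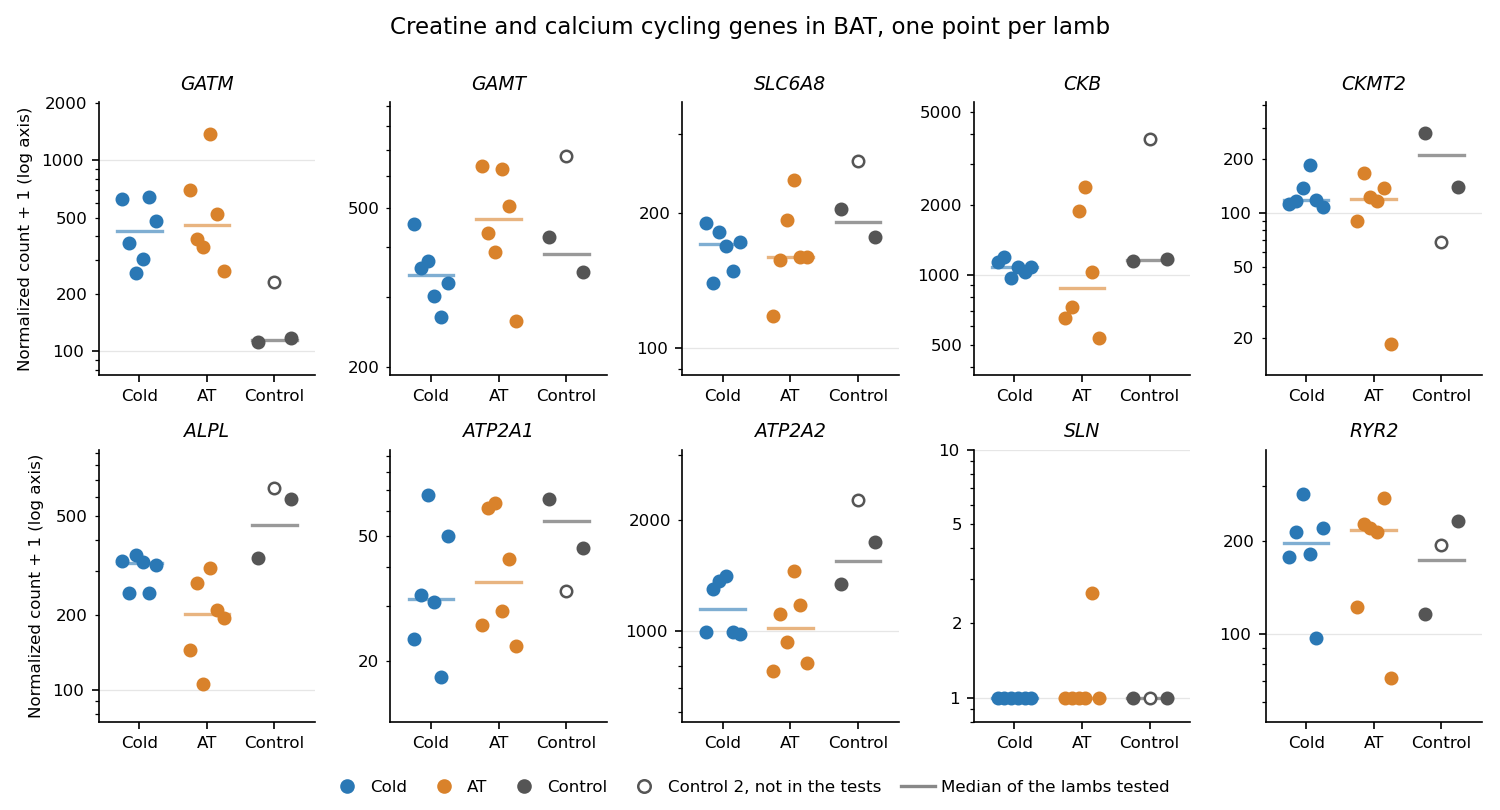
Normalized counts (log axis) of the creatine and calcium cycling genes in BAT, 1 point per library, by group. GATM lies above all 3 controls in all 12 cold and AT lambs, and ALPL lies below them in all 6 AT lambs.

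GATM makes the creatine precursor guanidinoacetate from arginine and glycine (chr7:67307697-67323539, plus strand, 9 exon blocks; positions are on Oar_rambouillet_v1.0). Its normalized count in BAT was 110 in Control 1, 230 in Control 2 and 116 in Control 3. The lowest, median and highest values were 257, 424 and 639 in cold lambs and 263, 455 and 1366 in AT lambs. All 6 cold and all 6 AT lambs were above all 3 controls, so the groups did not overlap. The log2FC against control was 2.40 ± 0.59 (SE) in AT lambs, a 5.26-fold higher level (edgeR, adjusted p = 0.0227), and 1.97 ± 0.58 in cold lambs, 3.92-fold (edgeR, adjusted p = 0.0883). With all 3 controls these were 2.06 (adjusted p = 0.018) and 1.62 (adjusted p = 0.062). DESeq2 called the cold difference as well (log2FC 1.97, adjusted p = 0.00543), as did edgeR with TMM scaling (log2FC 2.12) or with only cold and control lambs in the fit (2.04). The AT call was lost when Control 2 replaced Control 1 (log2FC 1.89, adjusted p = 0.0541) or Control 3 (1.92, 0.0563), and when Control 3 (2.37, 0.160) or Control 1 (2.46, 0.194) was the lone control. It was also lost with only AT and control lambs in the fit (2.36, adjusted p = 0.0592). Cold and AT lambs overlapped (cold against AT log2FC −0.42 ± 0.36, adjusted p = 0.632). Among markers of other cells, 6 of 6 tested nerve markers had a positive log2FC in BAT in both comparisons with controls (median 1.03 in cold and 1.16 in AT) and 0 were called. Their sum was 896 to 1328 in cold, 616 to 1600.5 in AT and 436 to 1241.5 in control lambs. Kidney, a known source of GATM, lies beside this fat. Its 9 markers in the table summed in BAT to 21.3 to 46.1 normalized counts in cold lambs (median 43.7). The sums were 22.4 to 72.9 (median 54.4) in AT and 25.9 to 33.7 (median 30.3) in control lambs. Of the 9 markers, 4 in cold, 4 in AT and 7 in control lambs had under 10 reads in every BAT library. The part of nerve or kidney RNA in the GATM result was not tested.

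GAMT methylates guanidinoacetate to creatine (chr5:45921244-45924269, minus strand, 6 exon blocks). In BAT it ranged from 266 to 455 normalized counts in cold lambs with a median of 339, and from 260 to 636 in AT lambs with a median of 467, and was 421, 674 and 346 in Controls 1 to 3. These ranges overlap in every pair of groups. The lower level in cold than in AT lambs (log2FC −0.46 ± 0.20) did not pass the adjusted test (edgeR, adjusted p = 0.376). Against control the log2FC was −0.16 ± 0.28 in cold and 0.30 ± 0.29 in AT lambs.

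SLC6A8, the creatine transporter of the cell membrane (chrX:89129419-89137868, minus strand, 13 exon blocks), was steady between lambs in BAT, between 117 and 236 normalized counts in the 12 cold and AT lambs and between 176 and 260 in the 3 controls. The log2FC against control was −0.19 ± 0.23 in cold and −0.16 ± 0.23 in AT lambs, within its spread.

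CKB, the cytosolic brain-type creatine kinase (chr18:68862436-68865628, minus strand, 8 exon blocks), was the highest of the 10 genes in BAT per kilobase of exon, above 92.6% of the genes tested there. The cold lambs lay close together at 966, 1076 and 1192 normalized counts (lowest, median and highest). AT lambs spread from 533 over a median of 872 to 2375, around the cold lambs on both sides. Control 1 had 1146, Control 3 had 1163 and Control 2 had 3835, the highest value of the 15. The log2FC against control was −0.10 ± 0.43 in cold and 0.05 ± 0.43 in AT lambs (edgeR, adjusted p = 0.930 and 0.958).

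CKMT2, the sarcomeric mitochondrial creatine kinase, is made in striated muscle and also in brown fat (chr5:84859856-84885263, plus strand, 10 exon blocks). Its BAT levels were 106, 116 and 185 normalized counts in cold lambs (lowest, median and highest) and 17.5, 118 and 166 in AT lambs. Controls had 279, 67.2 and 139. AT 6 stood apart from the other AT lambs (89.5 to 166), and the groups overlapped. The log2FC against control was −0.70 ± 0.50 in cold and −0.96 ± 0.49 in AT lambs (edgeR, adjusted p = 0.486 and 0.228).

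ALPL, the tissue non-specific alkaline phosphatase, can cleave phosphocreatine (chr2:260713558-260779024, minus strand, 15 exon blocks). Controls 1 to 3 had 339, 650 and 584 normalized counts in BAT. The lowest, median and highest values were 105, 201 and 307 in AT lambs and 244, 322 and 347 in cold lambs. All 6 AT lambs and 5 of 6 cold lambs were below all 3 controls, and cold and AT lambs overlapped. ALPL was downregulated in AT against control (log2FC −1.18 ± 0.31, a 2.26-fold lower level, edgeR, adjusted p = 0.0252), and not called in cold against control (−0.62 ± 0.31, adjusted p = 0.310) or between cold and AT (0.56 ± 0.23, adjusted p = 0.353). With all 3 controls the AT difference was −1.30 (adjusted p = 0.010). With Control 3 as the lone control it was −1.51 (adjusted p = 0.0606), with Control 1 alone −0.72 (adjusted p = 0.436), and with only AT and control lambs in the fit −1.21 (adjusted p = 0.0741). Of 7 smooth muscle markers, 3 (ACTA2, TAGLN and ACTG2) were called lower in AT against control, beside 6.02% of all genes, and 2 had a log2FC above 0. In cold against control 0 of the 7 were called, beside 1.21% of all genes, and 2 of these markers had a log2FC above 0. Their sum was 10169 to 17749 in AT, 12910 to 31381 in cold and 18872 to 31668 in control lambs. Their part in the ALPL result was not tested.

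ATP2A2 encodes the calcium pump SERCA2, which most cells use (chr17:63194440-63251241, plus strand, 22 exon blocks). In BAT it was 981, 1145 and 1409 normalized counts in cold lambs (lowest, median and highest), 773, 1017 and 1454 in AT lambs, and 1342, 2266 and 1746 in Controls 1 to 3. Below all controls were 4 of 6 cold and 5 of 6 AT lambs, and the groups overlapped. The log2FC of −0.40 ± 0.24 in cold and −0.57 ± 0.24 in AT lambs did not pass the test (edgeR, adjusted p = 0.411 and 0.15). Its exons overlap those of ANAPC7 on the other strand, and because the use of strand in the counting is not given in the sources used here, reads of the 2 genes cannot be told apart.

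ATP2A1, the fast muscle pump SERCA1 (chr24:26463418-26481604, minus strand, 23 exon blocks), was low in BAT, above 4.50% of the genes tested there per kilobase of exon. It had 16.8 to 66.8 normalized counts in the 12 cold and AT lambs and 64.6, 32.5 and 44.8 in the controls. These values rest on 12 to 67 reads a library. Its exons overlap RABEP2 and LOC105604726 on the other strand, so part of so few reads may belong to either. The log2FC against control was −0.59 ± 0.50 in cold and −0.46 ± 0.50 in AT lambs, not called.

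SLN, the micropeptide sarcolipin that binds SERCA (chr15:18901253-18909974, minus strand, 3 exon blocks), had 0 reads in 14 of 15 BAT libraries and 1 read in AT 5. A count of 0 allows up to 3 reads, or 1.64 to 6.50 normalized counts at the size factors of these libraries. SLN was therefore not tested, and no difference could be detected at this depth.

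RYR2, the ryanodine receptor of heart and other tissues, releases calcium from the reticulum (chr25:9323030-10133975, plus strand, 106 exon blocks). In BAT it lay at 95.8, 196 and 283 normalized counts in cold lambs (lowest, median and highest), at 71.0, 216 and 273 in AT lambs and at 114, 193 and 230 in Controls 1 to 3. The controls fell inside both ranges. The log2FC against control was 0.16 ± 0.44 in cold and 0.10 ± 0.44 in AT lambs (edgeR, adjusted p = 0.883 and 0.911).

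UCP1 itself, for reference, was at 22621, 87969 and 20733 normalized counts in BAT of Controls 1 to 3, at 2927, 8614 and 12496 in cold and at 196, 3482 and 13045 in AT lambs (lowest, median and highest). All 12 were below all 3 controls, but with 2 controls in the fit the log2FC of −1.42 ± 0.90 in cold and −2.23 ± 0.88 in AT lambs was not called (edgeR, adjusted p = 0.431 and 0.127). Across the 12 cold and AT lambs, CKMT2 had the highest correlation with UCP1 among the 9 tested genes (Pearson r = 0.797, permutation p = 0.0125, adjusted over 26 relations 0.0671; Spearman rho = 0.531, permutation p = 0.0802, adjusted 0.389). The r was 0.436 within cold and 0.812 within AT lambs, and without AT 4 and AT 6, the lambs farthest from the median of UCP1, it fell to 0.370, so the relation rests on those lambs. With values centred within cold and within AT, r was 0.779 (adjusted permutation p = 0.0348). For the other 8 genes r with UCP1 lay between −0.288 and 0.464.

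The muscle marker sum was also set against each tested gene, since several of the 10 are made in muscle. In BAT, GAMT had the highest correlation with it over the 12 lambs (Pearson r = 0.822, permutation p = 0.0012, adjusted 0.0312; Spearman rho = 0.790, adjusted permutation p = 0.0816), with r = 0.712 within cold and 0.844 within AT lambs. It was 0.691 without AT 6 and Cold 5, the lambs farthest from the median of the sum. RYR2 followed (r = 0.694, adjusted permutation p = 0.0671), and with values centred within groups its r was 0.763 (adjusted permutation p = 0.0268), but without those 2 lambs the uncentred r was 0.132. With TMM scaling r was 0.731 for GAMT and 0.528 for RYR2. The muscle marker sum itself varied little in BAT, from 889 to 2158. Of its 29 markers, 10 in cold, 7 in AT and 11 in control lambs had under 10 reads in every BAT library. In thyroid tissue r was 0.975 for CKMT2 and 0.966 for ATP2A2 (adjusted permutation p = 0.0671 for each). Without AT 3 and Cold 4 these were 0.321 and 0.309.

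**Figure D2:**
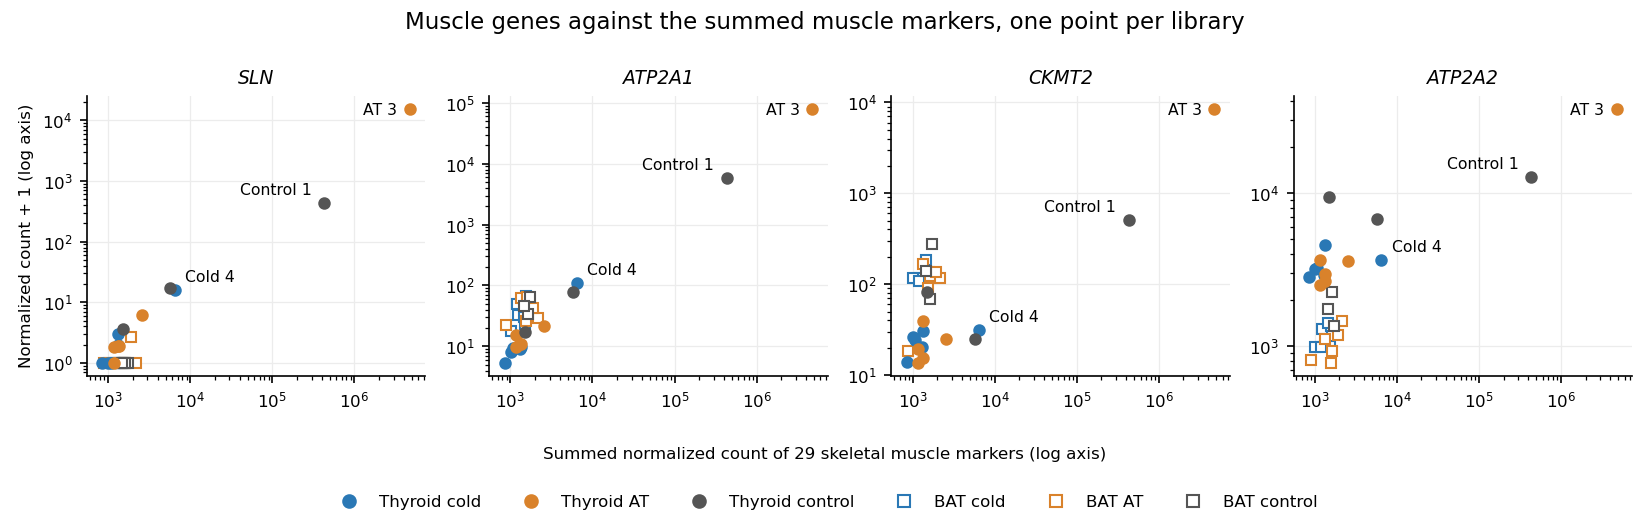
ATP2A1, SLN, CKMT2 and ATP2A2 against the summed skeletal muscle markers, both as normalized counts on log axes, 1 point per library of either tissue. Thyroid AT 3 and Control 1, at sums of 4769300 and 430360, hold the highest values of ATP2A1, SLN and CKMT2.

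In thyroid tissue the pump and regulator of skeletal muscle and CKMT2 were read beside the muscle marker sum. ATP2A1 was 78635 normalized counts in AT 3 and 5768 in Control 1, and 4.31 to 109 in the other 13 libraries, of which Cold 4 was the highest. SLN was 15274 in AT 3 and 432 in Control 1, and 0 to 16.1 in the rest. CKMT2 was 8406 in AT 3 and 508 in Control 1, and 12.6 to 82.1 in the rest. The order of the 3 highest libraries in ATP2A1, AT 3, Control 1 and Cold 4, was the order of the muscle marker sum, in which Cold 4 had 6446. In thyroid tissue of the 10 cold and AT lambs other than AT 3 and Cold 4, ATP2A1 rested on 5 to 20 reads and SLN on at most 5. Neither gene passed the filter on low counts, so neither was tested there. As a share of the muscle marker sum, ATP2A1 was 1.65% in AT 3, 1.34% in Control 1 and 1.69% in Cold 4, and 0.507% to 1.35% in the other libraries.

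**Figure D3:**
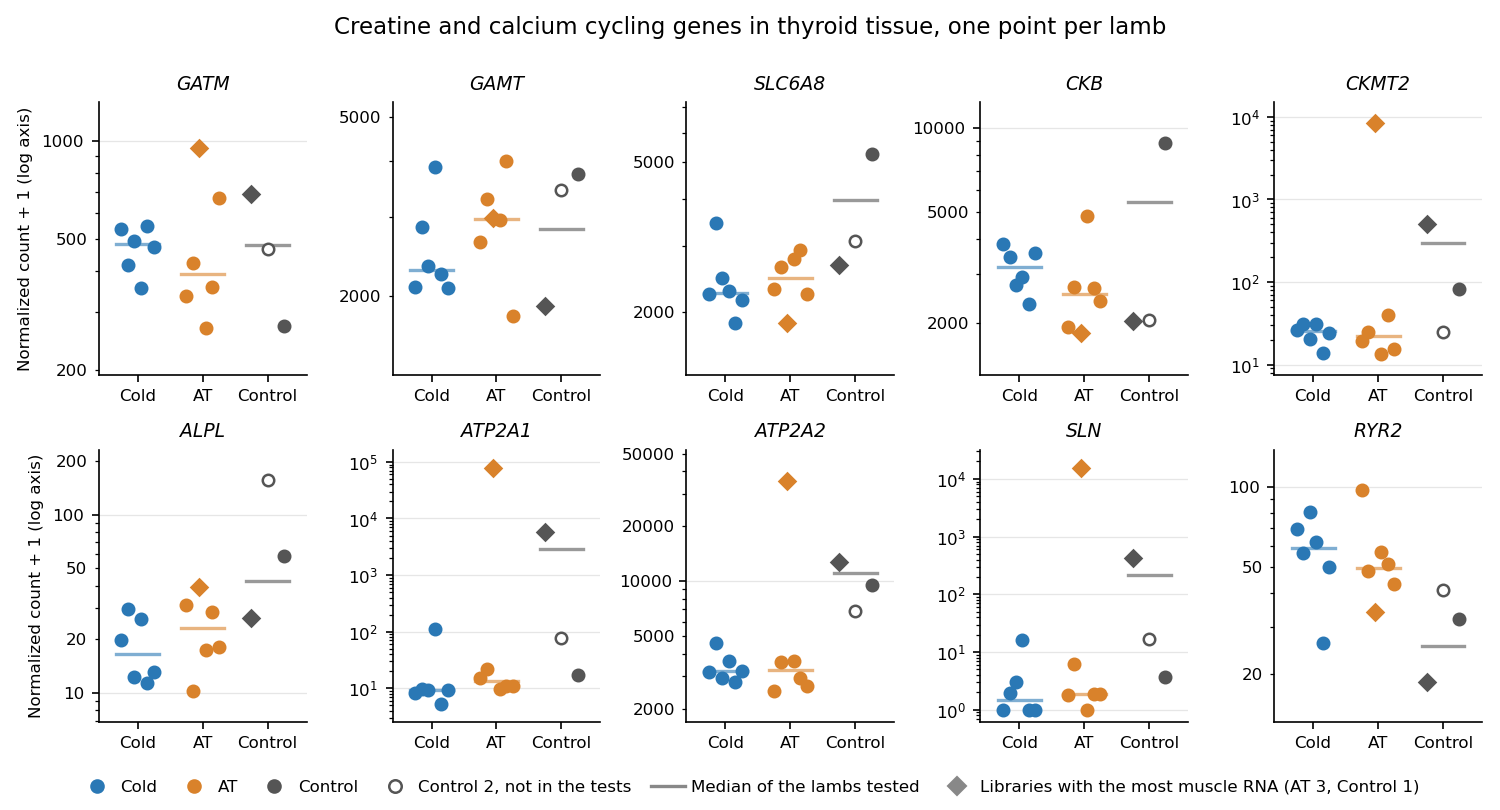
Normalized counts (log axis) of the creatine and calcium cycling genes in thyroid tissue, 1 point per library, by group. In ATP2A1, SLN, CKMT2 and ATP2A2, AT 3 lies apart from the other AT lambs, and in RYR2 5 of 6 cold and all 6 AT lambs lie above Control 1 and Control 3.

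Of the 8 genes tested in thyroid tissue, 0 were called by edgeR in cold against control, beside 8.04% of all genes, 0 in AT against control, beside 7.81%, and 0 in cold against AT, beside 0% of all genes. Over all genes in cold against AT, 870 had an unadjusted p under 0.05 and DESeq2 called 2. Of the 8 members, an unadjusted p under 0.05 was seen in 3, 3 and 1. Over all 16122 genes it was seen in 5722 in cold and 5897 in AT against control. DESeq2 called 0 of the 8 in each comparison. For CKMT2 and ATP2A2, DESeq2 gave no adjusted p in this tissue. The scaling by reference genes put the median log2FC of all genes at −0.28 in both comparisons with controls, against 0.02 and 0.05 with TMM. Changes of ALPL, SLC6A8 and RYR2 are therefore also given relative to this median below. Relative to it, CKMT2 was at −3.37 in cold and 2.54 in AT lambs, and ATP2A2 at −1.43 and −0.11. CKB was at −0.50 and −0.70, GATM at 0.26 and 0.34, and GAMT at 0.16 and 0.35. The median log2FC of the 8 genes was −0.76 in cold and −0.17 in AT against control. Between cold and AT it was −0.14, beside 0.00 over all genes.

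CKMT2 in thyroid tissue had a log2FC of −3.66 ± 2.06 in cold and 2.26 ± 2.50 in AT against control (edgeR, adjusted p = 0.229 and 0.543). Without AT 3 both were negative and called, −3.66 ± 0.50 in cold (adjusted p = 0.000263) and −3.78 ± 0.54 in AT lambs (adjusted p = 0.000242), with Control 1 still in the fit. Without AT 3 and Control 1, with Control 3 alone, they were −1.82 and −1.93, called, and with Controls 2 and 3 they were −1.19 and −1.29 and not called (adjusted p = 0.0974 and 0.0825). The values in the libraries concerned were 12.6 to 38.5 in the 11 cold and AT lambs, 24.1 in Control 2 and 82.1 in Control 3, on 13 to 61 reads.

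ATP2A2 is made in thyroid cells as well as in muscle. Its values were 2815, 3195 and 4584 normalized counts in cold lambs (lowest, median and highest), 2508 to 3653 in 5 AT lambs, 35451 in AT 3, and 12725, 6822 and 9501 in Controls 1 to 3. All 6 cold lambs and the 5 AT lambs were below all 3 controls, with no overlap. With all libraries the log2FC was −1.71 ± 0.85 in cold and −0.39 ± 0.90 in AT lambs, not called (edgeR, adjusted p = 0.169 and 0.780). Without AT 3 these became −1.72 ± 0.19 and −1.86 ± 0.20, both called. Without AT 3 and Control 1, and with Controls 2 and 3 in the fit, ATP2A2 was called lower. Its log2FC was −1.26 ± 0.21 in cold (edgeR, adjusted p = 0.00121) and −1.39 ± 0.21 in AT lambs (adjusted p = 0.000945). The median log2FC of all genes in that fit was −0.24 in cold and −0.28 in AT lambs. Control 2 and Control 3 had muscle marker sums of 5735 and 1498.5, against 852 to 6446 in these 11 lambs, and the overlap with ANAPC7 applies here too.

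ALPL was low in thyroid tissue, where controls had 25.4, 155 and 57.9 normalized counts, cold lambs 10.4 to 28.8 and AT lambs 9.28 to 38.4. The groups overlapped through Control 1. The log2FC of −1.22 ± 0.51 in cold and −0.84 ± 0.51 in AT lambs (−0.94 and −0.56 relative to all genes) was not called with 2 controls (edgeR, adjusted p = 0.0996 and 0.247), was called with all 3 controls (−2.15, adjusted p = 0.0126, and −1.76, adjusted p = 0.0303), and rested on 9 to 96 reads a library.

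CKB and SLC6A8 were each highest in Control 3. CKB had 2041, 2044 and 8804 normalized counts in Controls 1 to 3, medians of 3181 in cold and 2541 in AT lambs, and a log2FC of −0.79 ± 0.41 and −0.99 ± 0.41. SLC6A8 had 2672, 3094 and 5279 in the controls and medians of 2253 in cold and 2465 in AT lambs. Its log2FC of −0.72 ± 0.25 and −0.70 ± 0.25 was −0.44 and −0.41 relative to the median of all genes (edgeR, adjusted p = 0.0516 and 0.0563). Without Control 1 both genes were called lower in both comparisons, and without Control 3 the log2FC of CKB was 0.64 in cold and 0.44 in AT lambs, so the direction of CKB rested on that library.

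GATM and GAMT did not separate the groups in thyroid tissue. GATM had medians of 484 in cold and 390 in AT lambs and 687, 465 and 271 in the controls, with a log2FC of −0.03 ± 0.42 and 0.06 ± 0.43. GAMT had medians of 2281 and 2960, and 1898, 3445 and 3732 in the controls, with a log2FC of −0.13 ± 0.30 and 0.06 ± 0.30.

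RYR2 was the 1 member with a positive log2FC in cold thyroid tissue. Controls had 17.7, 40.2 and 31.0 normalized counts, cold lambs 25, 58.3 and 79.7 (lowest, median and highest) and AT lambs 33, 48.9 and 96.6. Above both controls of the fit were 5 of 6 cold and 6 of 6 AT lambs, and the remaining cold lamb lay between these controls. The log2FC was 1.22 ± 0.49 in cold and 1.17 ± 0.49 in AT lambs, 1.5 and 1.45 relative to the median of all genes, and was not called (edgeR, adjusted p = 0.0898 and 0.0970), on 16 to 115 reads a library.

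**Figure D4:**
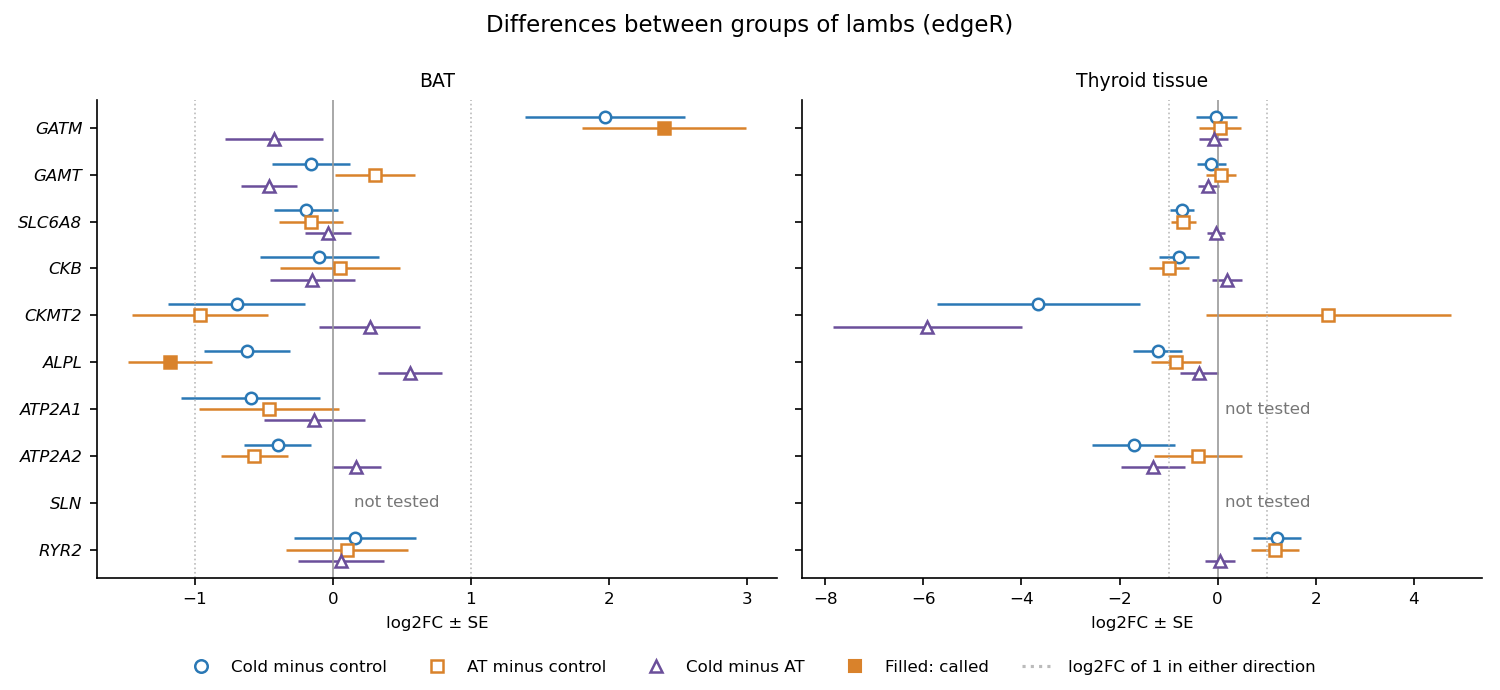
The log2FC with SE (edgeR, reference-gene scaling) of each tested gene in the comparisons within BAT and within thyroid tissue. In BAT, GATM against control reaches 2.40 in AT and 1.97 in cold lambs and ALPL −1.18 in AT lambs. CKMT2 and ATP2A2 have the widest errors in thyroid tissue.

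Levels in the 2 tissues were compared in the 12 cold and AT lambs, by a contrast in a joint fit of the counts. The fit held 28 libraries of 14 lambs, controls included, and 9 of the 10 genes were tested. Normalized counts per kilobase of exon describe the levels and did not enter the fit. Between BAT and thyroid tissue, 5 of 9 were called, beside 40.6% of all genes, and the median log2FC of BAT minus thyroid was 0.03 for the 9 genes and 0.34 for all genes (0.10 with TMM and −0.05 with median-of-ratios scaling). Higher in BAT were ALPL (log2FC 5.0 ± 0.26, adjusted p = 1.37e-15), RYR2 (3.17 ± 0.24, adjusted p = 6.1e-12) and GATM (1.48 ± 0.25, adjusted p = 8.41e-06), and the first 2 were higher in BAT in 12 of 12 lambs and GATM in 11. Higher in thyroid tissue in 12 of 12 lambs were SLC6A8 (−2.46 ± 0.13, adjusted p = 1.38e-15) and GAMT (−1.38 ± 0.16, adjusted p = 1.18e-08). These 5 kept their direction and their call under TMM and median-of-ratios scaling.

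Per kilobase, the order in BAT by the median over the 12 lambs was CKB (1145), GAMT (639), GATM (306), ATP2A2 (276), ALPL (150), CKMT2 (123), SLC6A8 (83.3), RYR2 (21.8), ATP2A1 (11.4) and SLN (0), beside 6223 for UCP1. Most neighbours in this order overlapped over the lambs, such as CKB (600.4 to 2677) and GAMT (427 to 1096). Gaps lay between ATP2A2 (212 to 398) and ALPL (63.0 to 196), between SLC6A8 (59.8 to 120) and RYR2 (7.26 to 26.9), and between ATP2A1 (5.84 to 23.4) and SLN (0 to 3.35). In thyroid tissue the order was GAMT (1722), CKB (1125), SLC6A8 (441), ATP2A2 (320), GATM (119), CKMT2 (9.16), ALPL (3.96), RYR2 (1.97), ATP2A1 (1.27) and SLN (0.704), where UCP1 had 5.82. There the neighbours CKB (796 to 2018) and SLC6A8 (354 to 627) did not overlap, nor, without AT 3, did ATP2A2 (256.5 to 448) and GATM (71.7 to 176) or GATM and CKMT2 (4.96 to 15.2). The 2 synthesis enzymes differed between the tissues in opposite directions. CKB was higher in thyroid tissue in 9 of 12 lambs, and its log2FC of 0.03 ± 0.23 did not pass the test (edgeR, adjusted p = 0.902) and was −0.24 with TMM.

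For CKMT2, ATP2A1 and ATP2A2, the tissue difference moved when thyroid AT 3 and Control 1 were left out together. The part of muscle RNA in these moves was not tested. CKMT2 was higher in BAT in 11 of 12 lambs, and its log2FC of 0.73 ± 0.84 was not called (edgeR, adjusted p = 0.439) with AT 3 in the fit. Without thyroid AT 3 and Control 1 it was 3.76 ± 0.29 (adjusted p = 1.51e-11), and with the lamb as replicate block 3.27 ± 0.65 (adjusted p = 0.000394). ATP2A1 was higher in BAT in 10 of 12 lambs, at −2.54 ± 1.29 with AT 3 and 2.47 ± 0.46 without thyroid AT 3 and Control 1. ATP2A2 was at −0.90 ± 0.35 with all libraries, below the fold needed for a call, but was called lower in BAT with TMM (−1.11) and with median-of-ratios scaling (−1.23). Without those 2 libraries it was −0.15 ± 0.12.

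**Figure D5:**
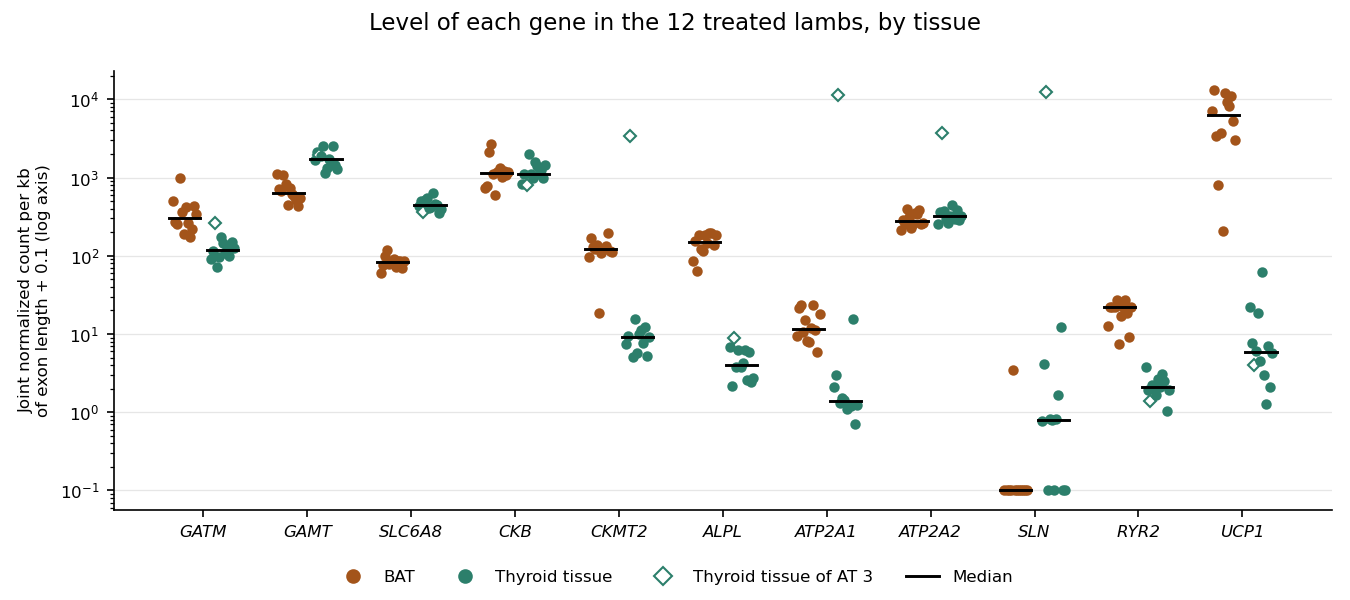
Normalized count per kilobase of exon (log axis, joint scaling) of each gene in BAT and thyroid tissue of the 12 cold and AT lambs, 1 point per library, with the median. ALPL, RYR2 and GATM sit higher in BAT, SLC6A8 and GAMT higher in thyroid tissue, and CKB overlaps between the tissues.

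Whether a change differed between the tissues was tested as an interaction in the same fit. For cold against control 0 of 9 genes were called, beside 0.182% of all genes, for AT against control 0 of 9, beside 1.66%, and for cold against AT 0 of 9, beside 0% of all genes (edgeR), of which 1340 had an unadjusted p under 0.05. At an unadjusted p under 0.05 there were 1, 1 and 3 of the 9, beside 1998, 3024 and 1340 of all 17021 genes. DESeq2 was not run on the joint table. GATM had the difference nearest to a call, 2.38 ± 0.72 higher in BAT than in thyroid tissue for AT against control (adjusted p = 0.0813) and 2.02 ± 0.72 for cold against control (adjusted p = 0.256). The GATM change in BAT is therefore not shown to differ from that in thyroid tissue.

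Other genes of the creatine and phosphate route were taken from a list of 23, of which 19 were in the table and 17 were tested in BAT. In BAT, 1 of 17 was called lower and 0 higher in cold against control, beside 1.21% of all genes called, and 3 were called lower and 0 higher in AT against control, beside 6.02%. A log2FC above 0 was found for 5 and 8 of the 17. PHOSPHO1, a phosphatase of phosphocholine and phosphoethanolamine that mineralizing cells also use, fell in both. Its normalized counts were 587 to 1724 in the 3 controls, 156 to 373 in cold lambs and 78.7 to 211 in AT lambs, with no overlap. The log2FC of PHOSPHO1 was −2.63 ± 0.35 in cold (edgeR, adjusted p = 0.00535) and −3.22 ± 0.35 in AT lambs (adjusted p = 0.000284). The mitochondrial adenylate kinase AK4 (−1.38 ± 0.30) and MAT2A, which makes the methyl donor that GAMT uses (−1.02 ± 0.21), fell in AT lambs. In thyroid tissue 1 of 18 tested was called in each comparison with control, beside 8.04% (cold) and 7.81% (AT) of all genes. It was GNMT, which spends the same methyl donor on glycine, lower in cold (−1.33 ± 0.34) and in AT lambs (−1.60 ± 0.34). None of the list was called between cold and AT by edgeR, beside 0.275% of all genes in BAT and 0% in thyroid tissue. CKM, the muscle creatine kinase, was at most 6.50 normalized counts in BAT, and in thyroid tissue reached 185660 in AT 3 and 48260 in Control 1.

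Other calcium cycling genes came from a list of 39, of which 35 were in the table and 30 were tested in BAT. In cold against control 0 were called (edgeR), beside 1.21% of all genes, and in AT against control 1 rose and 2 fell, beside 6.02%. ATP2A3, the SERCA3 pump of blood and secretory cells, rose in AT lambs (log2FC 2.18 ± 0.49, adjusted p = 0.0149), from 104, 234 and 312 normalized counts in the controls to 490, 1236 and 1932 (lowest, median and highest), without overlap. In cold lambs ATP2A3 ranged from 345 to 910, also above all controls, and was not called (1.34 ± 0.47, adjusted p = 0.141). ATP2A3 was the 1 gene of the list whose change differed between the tissues, with an interaction of 2.58 ± 0.52 for AT against control (adjusted p = 0.0117). The genes that fell in AT lambs were SRL, the sarcoplasmic reticulum protein sarcalumenin (−1.71 ± 0.31), and CALR, the calcium-binding chaperone calreticulin (−1.27 ± 0.27).

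In thyroid tissue, 4 of 32 of these calcium genes were called lower and 0 higher in each comparison with control, beside 8.04% (cold) and 7.81% (AT) of all genes called. Of all called genes 23.5% and 23.4% were higher under this scaling and 57.6% and 63.6% with TMM, and 4 and 13 of the 32 had a log2FC above 0. CALR fell in cold (−1.92 ± 0.38) and AT lambs (−1.98 ± 0.38). The release channel ITPR3 (−1.55 ± 0.34 and −1.37 ± 0.34) and SARAF, a regulator of store-operated calcium entry (−1.22 ± 0.32 and −1.34 ± 0.32), also fell in both. ATP2B2 was called lower in cold and S100A1 in AT lambs. Between the tissues, 3 of 32 were called higher in BAT and 10 in thyroid tissue, a share equal to the 40.6% of all genes called. Thyroid AT 3, rich in muscle RNA, was in this fit. Of 24 tested skeletal muscle markers, 12 were called higher in thyroid tissue and 0 in BAT there. The part of muscle RNA in these 10 calls was not tested. Phospholamban (PLN), the SERCA regulator of heart and smooth muscle, had reads in every BAT library, at 580 to 936 normalized counts in cold, 439 to 903 in AT and 218 to 680 in control lambs, and was not called.

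The genes whose pattern over the 14 libraries of a tissue was most like that of a member were ranked by Pearson's r of log2(normalized count + 1), as a description. In BAT the first gene was SLC25A24 for ALPL (0.949), CDK10 for GAMT (0.946), UXS1 for ATP2A2 (0.927), LOC114116333 for GATM (0.913), CDK2 for CKB (0.904) and E2F5 for SLC6A8 (0.899). For CKMT2 in BAT the first was LOC114117965 (0.953), followed by ACOT11 (0.917), and for RYR2 LOC105605798 (0.905). For CKMT2 in thyroid tissue it was the muscle gene ANKRD2 (0.983), and for ATP2A2 there ACTR3B (0.980). Among the members themselves, ATP2A2 went with CKMT2 in thyroid tissue (r = 0.96), where both were highest in AT 3, and with ALPL in BAT (r = 0.75).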

How the data were processed

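RNA of BAT and thyroid tissue from 15 lambs was sequenced as read pairs on BGISEQ-500 after oligo(dT) selection. Per the submitters' processing notes, FastQC 0.11.9, Trimmomatic 0.39, STAR 2.7.7a and featureCounts of Subread 2.0.0 were used. Reads were aligned to Oar_rambouillet_v1.0, by the methods of the study. The deposited values are raw read counts for each gene in each library, which the authors had not scaled. Reads that map to several places were counted, and whether counting used the strand is not given in the sources used here. Every column matched a sample, and 2 gene names occur again.

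Members and gene lists were chosen with earlier results of these data known. Named genes are the 10 members, UCP1, per comparison at most the 5 called genes of each further list with the largest absolute log2FC, and at most 3 most correlated genes per member; PLN, CKM and the named marker genes were named after their values were seen. Control 1 and Control 3 were identified as the controls the study kept because its normalized counts were proportional to those libraries. Chromosome names were assigned by the gene symbols each sequence shares with the RefSeq table.

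Counts were tested with edgeR 4.0.16 (R 4.3.3; quasi-likelihood, robust, 2-sided, Benjamini-Hochberg) on genes that reached 10 reads in 10 or more libraries: 14905 in BAT, 16122 in thyroid tissue and 17021 jointly. Offsets came from ACTB, RPL19 and HUWE1 size factors (DESeq2 1.42.0), and each fit held all 3 groups. On simulated counts for BAT AT against control (14905 genes), 85 of 100 genes changed by a log2FC of 2 and 96 of 100 changed by 3 were recovered. The changed genes were drawn only from genes above a cut on mean normalized count. Recovery at low counts or at changes under 2 was therefore not measured. Relations used 100000 permutations (SciPy 1.17.1). Alternatives were TMM, median-of-ratios, DESeq2's test, all 3 controls, other filters, only 2 groups, RNA integrity number as covariate, each lamb left out, the adjusted p alone and the lamb as replicate block. Fits without thyroid AT 3 and Control 1, and with Control 2 in place of another control, were chosen after seeing the data. Libraries of one lamb share the animal, and their deviations from group means correlated between the tissues at 0.107 to 0.371, except AT 3 at −0.0027. No pair of libraries of a group was as alike as sampling noise would make it (chi-square per degree of freedom at least 55.9 in BAT and 38.3 in thyroid tissue). In BAT, 2 genes without a symbol took 43.8% to 76.5% of the counts, which lowers the depth of the others. The floor given for SLN covers counting error only, whereas standard errors include the variation between lambs.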

Additional observations from a re-analysis of the deposited data

Results flagged for a closer look

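The highest or lowest lamb of each group of 6 was set against the rest, and marked where its gap to the nearest lamb exceeded 0.625 of the group's range (Dixon's 95% critical value). Of 38 such groups 6 were marked, and chance alone marks about 1 in 20. CKMT2 in BAT of AT 6 was 17.5 normalized counts, below 89.5 to 166 in the other AT lambs, and UCP1 was at its lowest, 196, in the same library. In thyroid tissue, AT 3 stood apart with ATP2A1 at 78635 (8.72 to 20.6 in the others), SLN at 15274 (0 to 5.15), CKMT2 at 8406 (12.6 to 38.5) and ATP2A2 at 35451 (2508 to 3653). ATP2A1 in thyroid tissue of Cold 4 was 109, above 4.31 to 8.63 in the other cold lambs. AT 3 and Cold 4 held the highest muscle marker sums of their groups, 4769300 and 6446.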

How the results depend on the processing

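Of 1615 values of single genes or relations under an alternative, 1566 kept their side of the threshold, 38 newly passed it, 8 no longer passed it and 3 turned, where a turn of sign was counted only if a value on either side was called. The 3 were CKMT2 in thyroid AT against control (−3.78 without AT 3, and −1.93 without AT 3 and Control 1) and ATP2A1 in BAT against thyroid tissue (2.47 without thyroid AT 3 and Control 1). Thyroid AT 3 was left out in each of these 3 fits. With each lamb left out, CKMT2 ran from −3.78 to 4.11. It was 2.26 in the main fit and 4.11 without Control 1 alone, so it did not turn there. In BAT cold against control, the count of members called rose from 0 to 1, GATM, with TMM, with median-of-ratios scaling, with DESeq2 and with only the 2 groups compared. With 1 treated lamb left out in turn, it was 1 only without AT 4. Over all genes, 180 of 14905 were called in the main fit. In these fits 323, 327, 628 and 341 of 14905 and 228 of 14691 were called, in that order. In BAT AT against control the count of members fell from 2 to 0 with only the 2 groups compared. It was 1 with Control 2 in place of Control 1 or Control 3. Over all genes, 897 of 14905 were called in the main fit. In these fits 488 of 14905, 1364 of 14815 and 1204 of 14766 were called, in that order. GATM lost its call in each of these fits. In thyroid cold against control the count was 0, but 1 with all 3 controls, 2 with only the 2 groups compared and 2 without AT 3. It was also 2 without AT 3 and Control 1 with Controls 2 and 3. Over all genes, 1297 of 16122 were called in the main fit. In these fits 1370 of 16215, 1574 of 16122, 1729 of 15982 and 1827 of 15948 were called, in that order. In thyroid AT against control the count was 0, but 1 with all 3 controls, 2 without AT 3 and 1 without AT 4. It was also 2 without AT 3 and Control 1 with Controls 2 and 3. Over all genes, 1259 of 16122 were called in the main fit. In these fits 1141 of 16215, 2040 of 15982, 1192 of 15943 and 1709 of 15948 were called, in that order. The cause of these moves and of the 3 turns was not tested. Fits with 1 control left are not in these counts, and that control is assumed to vary like the other groups. With the lamb as replicate block, BAT against thyroid tissue gave 6 calls instead of 5, CKMT2 being added, and the paired fit changed no other call. The same comparison gave 6 calls, ATP2A2 being added, with TMM, with median-of-ratios scaling and by the adjusted p alone. Over all 17021 genes, 6907 were called in the main fit and 6955 with the lamb as block. With TMM 6470 were called, with median-of-ratios scaling 6425, and by the adjusted p alone 12629. Scaling moved the direction of calls over all genes: against control, called genes were higher in 47.8% (cold) and 46.9% (AT) in BAT and 23.5% and 23.4% in thyroid tissue, and with TMM in 71.5%, 63.9%, 57.6% and 63.6%. Depth limits SLN in BAT and ATP2A1 and SLN in most thyroid libraries.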
